A study of Mus musculus with 15 samples.

Results

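The core circadian clock genes are described here as a list of 10 genes (Arntl, Clock, Npas2, Cry1, Nfil3, Nr1d1, Nr1d2, Per1, Per2 and Dbp), each taken from the array cluster that the probe table gives to that 1 symbol. Of the 10, 9 were measured under this rule, among 22180 genes in all. The Per2 cluster is listed with a second symbol, so Per2 was left out. Livers came from 15 male apoE3L.CETP mice. The labels give an age of 9 to 12 weeks, which is not tied here to the day of liver collection. All groups carry the human APOE*3-Leiden and CETP transgenes, which make lipoproteins more human-like, and all ate a diet of 60% fat and 0.25% cholesterol, begun 6 weeks ahead of surgery. The groups were 6 mice after Roux-en-Y gastric bypass (RYGB), an operation that joins a small gastric pouch to the jejunum, 4 sham-operated mice matched in weight to them (BWm) and 5 sham-operated mice fed ad libitum (Sham AL). All were housed singly after surgery and killed 20 days after it. An oral glucose tolerance test had been done on day 13 and an insulin test on day 19. Food was weighed daily at 4 h before dark. The hour of liver collection and the hours at which BWm mice had food are not stated in the labels.

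The circadian clock is a loop of transcription factors that runs in nearly every cell. CLOCK, or its relative NPAS2, pairs with the product of Arntl (BMAL1) and switches on genes with an E-box in their regulatory DNA, among them the Per, Cry, Nr1d and Dbp genes. PER and CRY proteins then repress that pair, and the nuclear receptors encoded by Nr1d1 and Nr1d2 (REV-ERBs) bind ROR elements and repress Arntl, Clock, Npas2, Cry1 and Nfil3. DBP and NFIL3 act on the same D-box elements, DBP as an activator and NFIL3 as a repressor. In mouse liver the Arntl transcript therefore runs roughly opposite to Nr1d1 and Dbp over the day, and the time of food intake is a strong cue for this rhythm.

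Start-site windows show which of these elements stand close to the genes whose levels are given below. RefSeq windows (GRCm38.p6) of 250 bases before to 50 after a transcript start were found for 9 of the 9 genes, 13 windows in all. They were searched on both strands for the E-box CACGTG, its variant CACGTT, the ROR element core TAGGTCA or TGGGTCA, and the D-box TTATGTAA or TTACGTAA, and no 2 matches overlapped. Windows that hold a match are printed 5′ to 3′ on the strand of the gene, with the matched letters in capitals. Arntl, at chr7:113207261-113207560 on the plus strand, and Nfil3, at chr13:52980990-52981289 on the minus strand, each hold TAGGTCA, which begins 31 bases after the start in Arntl and lies in reverse 12 bases before the start in Nfil3. Cry1, at chr10:85185005-85185304 on the minus strand, holds the variant in reverse 79 bases before its start and CACGTG at 60 bases before. Nr1d1, at chr11:98775328-98775627 on the minus strand, holds the variant in reverse 28 bases before its start. Per1, at chr11:69098699-69098998 on the plus strand, holds CACGTG 166 bases before its start.
Arntl: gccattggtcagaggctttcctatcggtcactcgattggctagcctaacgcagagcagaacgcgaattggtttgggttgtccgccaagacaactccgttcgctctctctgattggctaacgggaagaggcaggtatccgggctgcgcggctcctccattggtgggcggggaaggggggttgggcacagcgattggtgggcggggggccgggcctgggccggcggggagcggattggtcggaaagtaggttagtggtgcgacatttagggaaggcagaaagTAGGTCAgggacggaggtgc
Nfil3: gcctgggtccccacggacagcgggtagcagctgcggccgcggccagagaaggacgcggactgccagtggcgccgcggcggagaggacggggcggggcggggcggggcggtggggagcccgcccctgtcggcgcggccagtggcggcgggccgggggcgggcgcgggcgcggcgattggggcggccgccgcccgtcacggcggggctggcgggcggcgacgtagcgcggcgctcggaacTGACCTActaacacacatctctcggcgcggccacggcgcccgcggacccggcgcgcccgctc
Cry1: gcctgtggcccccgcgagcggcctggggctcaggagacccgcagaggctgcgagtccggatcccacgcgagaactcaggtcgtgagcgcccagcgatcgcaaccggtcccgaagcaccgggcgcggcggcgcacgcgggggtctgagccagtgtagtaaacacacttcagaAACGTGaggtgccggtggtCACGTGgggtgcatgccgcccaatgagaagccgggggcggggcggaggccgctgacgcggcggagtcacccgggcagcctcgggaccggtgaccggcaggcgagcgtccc
Nr1d1: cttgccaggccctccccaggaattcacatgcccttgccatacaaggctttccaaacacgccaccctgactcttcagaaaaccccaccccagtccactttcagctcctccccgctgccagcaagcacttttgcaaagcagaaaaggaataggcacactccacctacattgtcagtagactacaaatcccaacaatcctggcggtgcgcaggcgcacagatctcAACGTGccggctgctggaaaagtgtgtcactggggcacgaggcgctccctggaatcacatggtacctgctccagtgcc
Per1: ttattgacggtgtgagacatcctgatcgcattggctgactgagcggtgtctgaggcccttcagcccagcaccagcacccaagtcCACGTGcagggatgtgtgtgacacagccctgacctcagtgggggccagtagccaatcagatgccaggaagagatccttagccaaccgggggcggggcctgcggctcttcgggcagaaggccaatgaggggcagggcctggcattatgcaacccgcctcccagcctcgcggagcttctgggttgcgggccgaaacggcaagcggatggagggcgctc
Of all 32851 windows of this length, 7.15% hold CACGTG, 4.68% the variant, 6.45% a ROR element core and 1.06% a D-box. In the windows of Clock, Npas2, Nr1d2 and Dbp none of these letters were found, and these windows are short, so a match is a description and its lack says nothing about the factors.

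The deposited values are log2 signals after the robust multi-array average, and levels are compared here between groups for 1 gene, not between genes. Array medians lay between 3.89 and 4.02. Signal over background was not measured, and Arntl (4.29 to 7.29 over all arrays) and Npas2 (3.38 to 4.08) lay close to those medians on many arrays, which can hold down a fold change. The mean of 7 hepatocyte markers lay between 12.24 and 12.32 in RYGB livers, 12.29 and 12.34 in BWm livers and 12.13 and 12.24 in Sham AL livers. The array of Sham AL replicate 4 stood apart, where 662 genes differed by over 1 log2 unit from the other arrays of the group. For the other 14 arrays this number was 53 to 128. The mean of 5 adrenal cortex markers was 8.62 on it, against 3.01 to 3.35 in RYGB livers, 3.03 to 3.32 in BWm livers and a Sham AL median of 3.22. The mean of 5 adipocyte and brown fat markers was 9.22 on it, against 3.83 to 4.26 in RYGB livers, 3.89 to 4.1 in BWm livers and a Sham AL median of 4.81. In pieces of liver, fewer cells of a type and less RNA per cell cannot be told apart.

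By limma, BWm livers differed from both other groups in 5 of the 9 clock genes, with Arntl, Cry1 and Nfil3 moving one way and Nr1d1 and Dbp the other. Of all genes, 6.36% were called in RYGB against BWm and 2.84% in BWm against Sham AL. BWm and RYGB arrays overlapped in Arntl and Dbp. Only Cry1 and Nfil3 kept their calls in both comparisons whichever array was left out. Arntl, Cry1 and Nfil3 were lower after RYGB than in BWm, by 2.63-fold, 3.15-fold and 1.93-fold, while Nr1d1 and Dbp were higher after RYGB, by 1.77-fold and 1.84-fold. Against Sham AL, BWm livers had 3.05-fold, 2.74-fold and 2.12-fold more Arntl, Cry1 and Nfil3 signal and 1.83-fold and 1.93-fold less Nr1d1 and Dbp signal. None of the 9 genes passed the test between RYGB and Sham AL livers. All tests are limma contrasts over 15 arrays, with p values adjusted by Benjamini-Hochberg over 22180 genes and a threshold of 0.05.

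**Figure D1:**
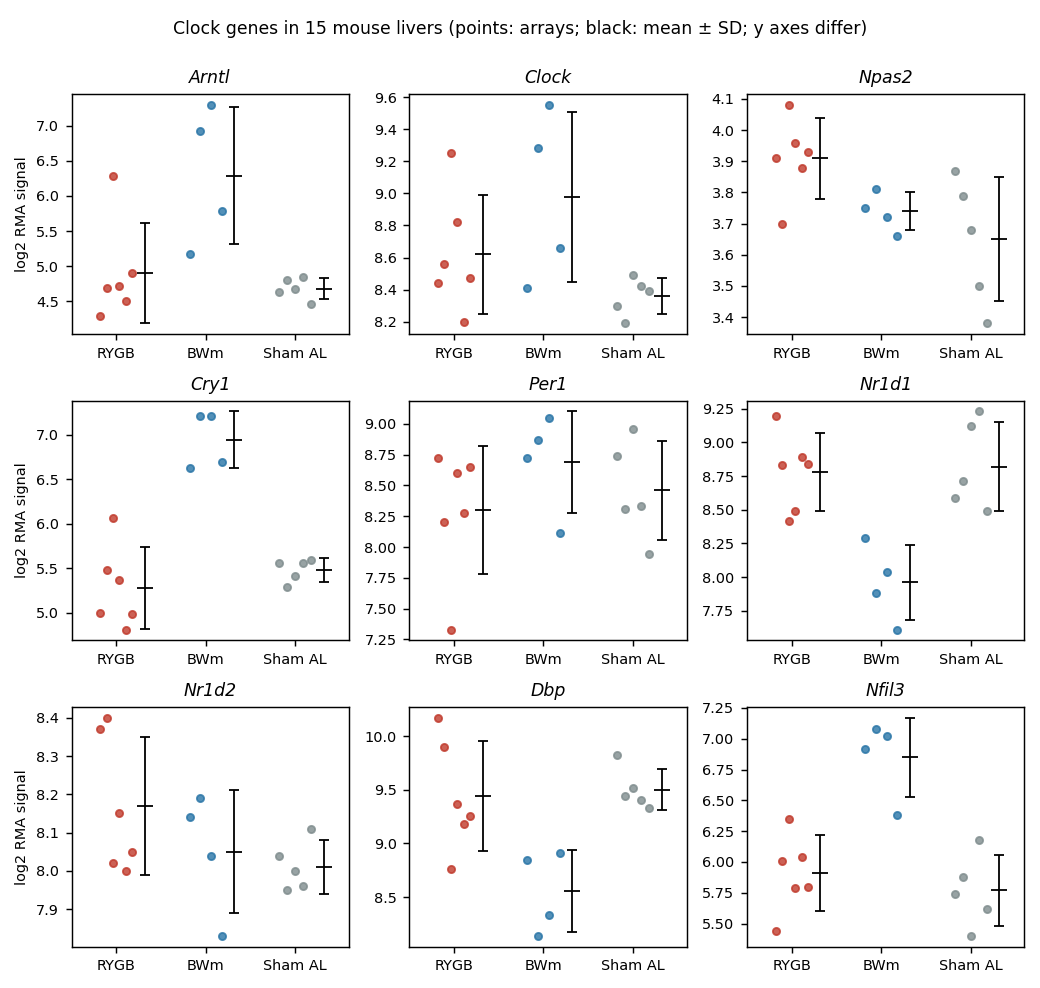
Log2 RMA signal (y axis, its own scale in each panel) of 9 clock genes in RYGB, BWm and Sham AL livers (x axis), with 1 point per array and the mean ± SD in black. The 4 BWm points of Cry1 lie between 6.63 and 7.21, above all RYGB and Sham AL points, and the BWm points of Nr1d1 lie below them.

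On the activating side, Arntl encodes the partner that CLOCK and NPAS2 share. Its lowest, median and highest values in RYGB livers were 4.29, 4.71 and 6.29. By replicate, it was at 5.17, 6.92, 7.29 and 5.79 in BWm livers and 4.63, 4.8, 4.68, 4.85 and 4.46 in Sham AL livers. All 4 BWm arrays lay above all Sham AL arrays, and RYGB replicate 3, at 6.29, lay among the BWm arrays. The group means were 4.9 ± 0.71 (SD, n = 6) after RYGB, 6.29 ± 0.98 (SD, n = 4) in BWm and 4.68 ± 0.15 (SD, n = 5) in Sham AL. Arntl fell in RYGB against BWm (log2 -1.39 ± 0.37 SE, limma adjusted p = 0.028) and rose in BWm against Sham AL (log2 1.61 ± 0.38 SE, limma adjusted p = 0.028). The spread among BWm mice was wide, and the SE pools the spread of all groups, of which Sham AL varied least. The call of RYGB against BWm was lost when RYGB replicate 1, 2, 4 or 5 or BWm replicate 2 or 3 was left out (highest adjusted p = 0.13). It also ended when only the compared groups were fitted, with limma's robust prior and with all transcript clusters tested. The call of BWm against Sham AL was lost when BWm replicate 2 or 3 or any of Sham AL replicates 2, 3 and 5 was left out (highest adjusted p = 0.12). It also ended with the robust prior and with all transcript clusters tested.

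Clock, the other partner of the activating pair, ran from 8.2 to 9.25 with a median of 8.52 in RYGB livers, against 8.41, 9.28, 9.55 and 8.66 in BWm livers and 8.3, 8.19, 8.49, 8.42 and 8.39 in Sham AL livers. BWm replicates 2 and 3, the mice with the most Arntl, were also highest here, and the groups overlapped. No contrast passed, with log2 -0.35 ± 0.21 (SE, limma adjusted p = 0.41) in RYGB against BWm and 0.62 ± 0.21 (SE, limma adjusted p = 0.14) in BWm against Sham AL. Npas2 lay between 3.7 and 4.08 in RYGB, 3.66 and 3.81 in BWm and 3.38 and 3.87 in Sham AL livers. Its contrasts were between log2 0.09 and 0.26 and did not pass.

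On the repressing side, Cry1 encodes a repressor of the CLOCK and BMAL1 pair. Its lowest, median and highest values in RYGB livers were 4.81, 5.18 and 6.06. By replicate, it was at 6.63, 7.21, 7.21 and 6.69 in BWm livers and 5.56, 5.29, 5.41, 5.56 and 5.59 in Sham AL livers. Every BWm array lay above all arrays of both other groups, by 0.58 from the nearest RYGB array and by 1.04 from the nearest Sham AL array. Cry1 fell in RYGB against BWm (log2 -1.65 ± 0.2 SE, limma adjusted p = 8.8e-05) and rose in BWm against Sham AL (log2 1.45 ± 0.2 SE, limma adjusted p = 0.0013). Both calls held in each of the 15 fits that left out 1 array, with an adjusted p of up to 0.00078 and 0.0078.

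Per1, which encodes the partner of CRY proteins in repression and is also switched on quickly by hormones, ran from 7.33 to 8.72 with a median of 8.44 in RYGB livers, against 8.72, 8.87, 9.05 and 8.11 in BWm livers and 8.74, 8.31, 8.96, 8.33 and 7.94 in Sham AL livers. The groups overlapped widely. The difference was log2 -0.39 (95% interval -0.92 to 0.14) in RYGB against BWm and 0.23 (95% interval -0.32 to 0.78) in BWm against Sham AL.

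Nr1d1, the gene of REV-ERB alpha, had a lowest, median and highest value of 8.42, 8.84 and 9.2 in RYGB livers. By replicate, it was at 8.29, 7.88, 8.04 and 7.61 in BWm livers and 8.59, 8.71, 9.12, 9.23 and 8.49 in Sham AL livers. All BWm arrays lay below every array of the other groups, though by only 0.13 from the nearest RYGB array and 0.2 from the nearest Sham AL array. It rose in RYGB against BWm (log2 0.82 ± 0.18 SE, limma adjusted p = 0.0074) and fell in BWm against Sham AL (log2 -0.87 ± 0.18 SE, limma adjusted p = 0.014). The second call ended without BWm replicate 2 (adjusted p = 0.054). Its relative Nr1d2, the gene of REV-ERB beta, lay between 8 and 8.4 in RYGB, 7.83 and 8.19 in BWm and 7.95 and 8.11 in Sham AL livers. The Nr1d2 differences were log2 0.11 (95% interval -0.11 to 0.34) in RYGB against BWm and 0.04 (95% interval -0.19 to 0.28) in BWm against Sham AL, so the intervals of the 2 relatives did not overlap in either comparison, although their difference was not itself tested.

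Among the D-box factors, Dbp is a circadian output activator. Its lowest, median and highest values in RYGB livers were 8.76, 9.31 and 10.17. By replicate, it was at 8.85, 8.14, 8.33 and 8.91 in BWm livers and 9.82, 9.44, 9.52, 9.4 and 9.33 in Sham AL livers. The BWm arrays lay below all Sham AL arrays, and RYGB replicate 3, at 8.76, lay within the BWm range. Dbp rose in RYGB against BWm (log2 0.88 ± 0.22 SE, limma adjusted p = 0.022) and fell in BWm against Sham AL (log2 -0.95 ± 0.23 SE, limma adjusted p = 0.034). The call of RYGB against BWm was lost with BWm replicate 2 or 3 or RYGB replicate 2 left out (highest adjusted p = 0.095). Leaving out BWm replicate 2 or 3, or any Sham AL array but replicate 4, ended that of BWm against Sham AL (highest adjusted p = 0.14). With animal number (under 50 or over 60) as a block, Dbp in RYGB against BWm was at log2 0.7 ± 0.24 (SE, limma adjusted p = 0.095).

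Nfil3, the opposing D-box repressor, had a lowest, median and highest value of 5.44, 5.9 and 6.35 in RYGB livers. By replicate, it was at 6.92, 7.08, 7.02 and 6.38 in BWm livers and 5.74, 5.88, 5.4, 6.18 and 5.62 in Sham AL livers. No BWm array overlapped the other groups, with a gap of 0.03 to the nearest RYGB array and 0.21 to the nearest Sham AL array. Nfil3 fell in RYGB against BWm (log2 -0.95 ± 0.18 SE, limma adjusted p = 0.0028) and rose in BWm against Sham AL (log2 1.09 ± 0.18 SE, limma adjusted p = 0.0034). Both calls held in all 15 fits without 1 array. Of the genes with printed windows, Arntl and Nfil3 (TAGGTCA) and Cry1 (CACGTG and its variant) rose in BWm against Sham AL, Nr1d1 (the variant) fell, and Per1 (CACGTG) did not pass.

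Counted over the 9 genes, 5 were called in RYGB against BWm, 2 higher and 3 lower, where 6.36% of all genes were called (4.02% higher and 2.34% lower). In 3 of the 9 the groups did not overlap, as in 7.61% of all genes. BWm against Sham AL likewise gave 5 calls, 3 higher and 2 lower, against 2.84% of all genes (1.53% higher and 1.3% lower), and the groups did not overlap in 5, against 6.85% of all genes. These comparisons share the BWm arrays, so their calls are not independent of each other. The median of the 9 genes was log2 -0.35 in RYGB against BWm and 0.23 in BWm against Sham AL, beside 0.001 and -0.015 over all genes, and it mixes both directions. Without BWm replicate 2 the counts were 3 and 2, and without BWm replicate 3 they were 3 and 3. Without RYGB replicate 2 the count in RYGB against BWm was 3, and without Sham AL replicate 2, 3 or 5 the count in BWm against Sham AL was 3. Without Sham AL replicate 4, and without RYGB replicate 3, the same 5 genes were called in both comparisons. The sample descriptions number 4 animals under 50 (3 RYGB, 1 Sham AL) and the rest over 60, without saying what the numbers mean, and the same 5 genes were called among the rest. With this split as a block, 4 genes were called in RYGB against BWm, without Dbp, and 5 in BWm against Sham AL.

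**Figure D2:**
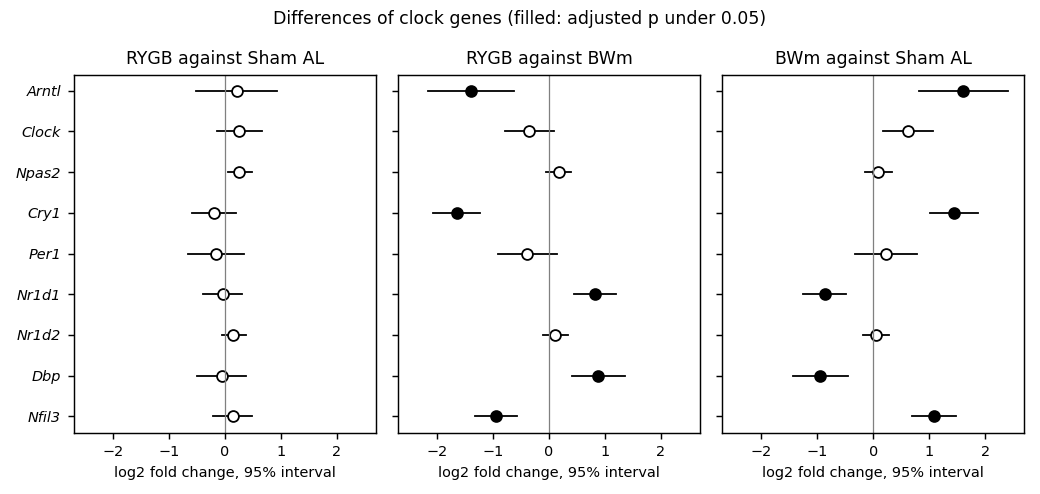
Log2 fold changes (x axis) of 9 clock genes (rows) in 3 comparisons, with 95% intervals from the limma fit, filled where the adjusted p was under 0.05. The 5 filled genes lie on opposite sides of 0 in RYGB against BWm and in BWm against Sham AL, and none is filled in RYGB against Sham AL.

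Between RYGB and Sham AL livers, which differ in surgery and body weight, 0 of the 9 genes were called by limma, where 1.38% of all genes were called (0.938% higher and 0.442% lower), and no gene's groups failed to overlap (2.39% of all genes). At an unadjusted p under 0.05 there was 1, Npas2 (log2 0.26 ± 0.1 SE, limma adjusted p = 0.26), and the test that the study's design text names also called 0. The 95% intervals give the differences that remain possible: -0.51 to 0.94 for Arntl, -0.14 to 0.67 for Clock, 0.05 to 0.48 for Npas2, -0.59 to 0.19 for Cry1, -0.66 to 0.34 for Per1, -0.39 to 0.3 for Nr1d1, -0.06 to 0.37 for Nr1d2, -0.5 to 0.38 for Dbp and -0.21 to 0.49 for Nfil3. The median of the 9 genes was log2 0.14, beside -0.003 over all genes. All but that of Npas2 hold 0, and each also holds differences of over 0.3 in size, so a like level in both groups was not shown.

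Single mice differed within the groups. RYGB replicate 3 had the highest Arntl (6.29), Clock (9.25), Cry1 (6.06) and Nfil3 (6.35) of the RYGB livers and the lowest Nr1d1 (8.42), Per1 (7.33) and Dbp (8.76). RYGB replicate 1 had the lowest Arntl (4.29) and Nfil3 (5.44) and the highest Nr1d1 (9.2), Per1 (8.72) and Dbp (10.17) of that group. Among BWm livers, replicates 2 and 3 had more Arntl, Clock and Cry1 and less Dbp than replicates 1 and 4. Nr1d1 did not split this way, at 8.29, 7.88, 8.04 and 7.61 by replicate. Sham AL livers varied little in Arntl (SD 0.15), Clock (SD 0.11) and Cry1 (SD 0.13). Sham AL replicate 4, the array with high adrenal cortex and fat marker signal, had the highest Arntl, Nfil3 and Nr1d1 of its group.

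**Figure D3:**
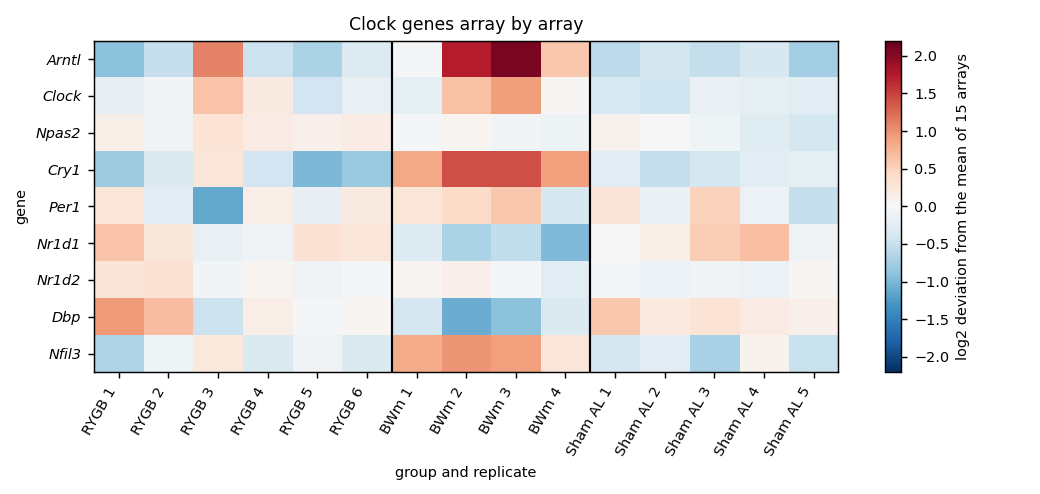
Deviation of each array (columns, by group and replicate) from the mean of 15 arrays for 9 clock genes (rows), in log2 units by colour. The 4 BWm arrays are red for Cry1 and Nfil3 and blue for Nr1d1 and Dbp, and RYGB replicate 3 is red for Arntl, Clock and Cry1 and blue for Per1 and Dbp.

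To see whether the genes vary together between mice of a group, group means were removed and the 36 pairs of genes were correlated over 15 arrays, with two-sided permutation tests within groups adjusted over the pairs. By Pearson's r, 2 pairs passed. Clock and Cry1 had r = 0.88 (permutation p = 0.00034, adjusted p = 0.012) and rho = 0.88 (permutation p = 0.0014, adjusted p = 0.05), and r = 0.9 without the 2 arrays farthest from the Clock median. Arntl and Clock had r = 0.91 (permutation p = 0.0026, adjusted p = 0.047) and rho = 0.8 (permutation p = 0.012, adjusted p = 0.13), and r = 0.81 without the 2 arrays farthest from the Arntl median, which were BWm replicates 2 and 3. By rho 0 pairs passed. Arntl and Dbp had r = -0.73 (permutation p = 0.015, adjusted p = 0.13) and rho = -0.65 (permutation p = 0.038, adjusted p = 0.23), and did not pass. Nor did Arntl and Cry1 (r = 0.81, permutation p = 0.0095, adjusted p = 0.11) or Arntl and Nr1d1 (r = -0.32, permutation p = 0.27, adjusted p = 0.5). Leaving out RYGB replicate 3 gave r = -0.6 for Arntl and Dbp and -0.1 for Arntl and Nr1d1. The count of pairs was 0 when either replicate 3 or replicate 5 of the RYGB group was left out, and 0 among animals numbered over 60. It was also 0 when each pair was tested without the 2 arrays farthest from the median of its first gene. It was 1 when any BWm array, Sham AL replicate 1 or 4, or RYGB replicate 2 or 4 was left out. Without RYGB replicate 3, r was 0.87 for Arntl and Clock and 0.83 for Clock and Cry1.

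**Figure D4:**
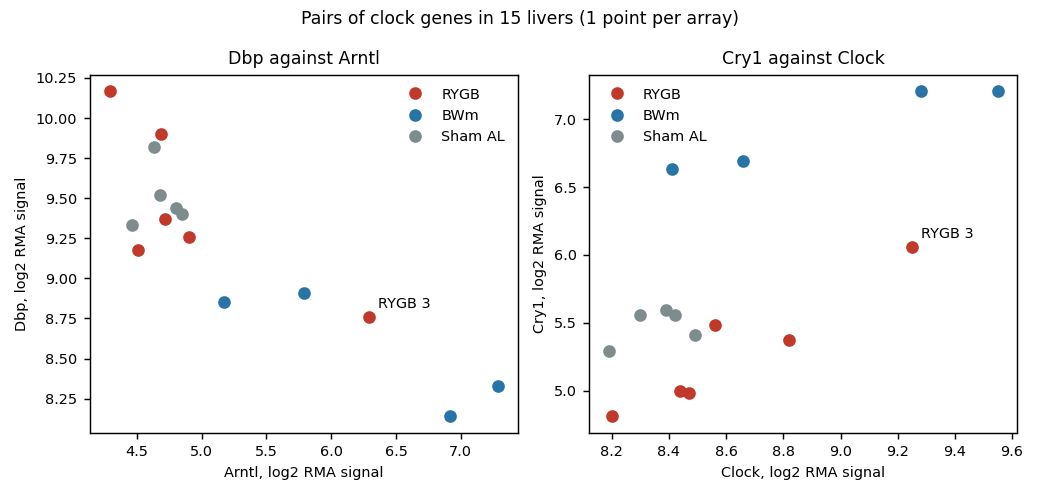
Log2 RMA signal of Dbp against Arntl (left) and of Cry1 against Clock (right), 1 point per array, coloured by group. RYGB replicate 3 lies apart from the other RYGB arrays in both panels, at 6.29 for Arntl and 8.76 for Dbp, and at 9.25 for Clock and 6.06 for Cry1.

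Over all 15 arrays, group differences included, the genes outside the 10 with a pattern most like Arntl were Clpx, a subunit of a mitochondrial protease (r = 0.944), Nedd4l, a ubiquitin ligase (r = 0.918), Pxmp4 (r = 0.906), Cpeb4 (r = 0.901) and Lrrc58 (r = 0.897). The most opposed were Tnfrsf19 (r = -0.941), Gnat1 (r = -0.912), Smim14 (r = -0.886), C4bp (r = -0.884) and Hdgfl2 (r = -0.869). On the same measure Arntl and Clock had r = 0.902, Arntl and Cry1 0.873 and Arntl and Dbp -0.88. Nr1d1 was most opposed by Acot3, an acyl-CoA thioesterase with close copies (r = -0.934), Hacl1, an enzyme of fatty acid alpha-oxidation (r = -0.906), Aass, an enzyme of lysine breakdown (r = -0.901), Nlrp12 (r = -0.892) and Slc16a7 (r = -0.892). Most like Nr1d1 were Smarcal1 (r = 0.869), Maged1 (r = 0.865), Fam219b (r = 0.859), Fabp5 (r = 0.856) and Slc36a1 (r = 0.856). These are descriptions over arrays of 3 groups of which BWm stands apart, so any gene that differs in BWm can rank high.

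Of 14 measured further components of the clock, 3 were called in RYGB against BWm (1 higher, 2 lower), 1 lower in BWm against Sham AL and 0 in RYGB against Sham AL (0 also at an unadjusted p under 0.05 by limma). Of all genes, 6.36%, 2.84% and 1.38% were called in these comparisons, and 1 of 14 is near that background. Bhlhe41 (DEC2), an E-box repressor that the clock itself switches on, averaged 4.92 ± 0.45 (SD, n = 6) in RYGB, 4.25 ± 0.15 (SD, n = 4) in BWm and 5.09 ± 0.17 (SD, n = 5) in Sham AL livers. RYGB replicate 1 was at 5.82 and the other RYGB arrays at 4.62 to 4.82. The BWm arrays, at 4.11 to 4.44, lay close to the array medians of 3.89 to 4.02. Bhlhe41 rose in RYGB against BWm (log2 0.67 ± 0.18 SE, limma adjusted p = 0.033) and fell in BWm against Sham AL (log2 -0.84 ± 0.19 SE, limma adjusted p = 0.021), the directions of Nr1d1 and Dbp. These 2 calls ended without BWm replicate 1 or 3, and the first also without BWm replicate 4 (adjusted p of up to 0.095). Rora, which encodes an activator at ROR elements, fell in RYGB against BWm by log2 -0.34 ± 0.1 (SE, limma adjusted p = 0.042). That call held in 5 of 15 fits without 1 array and ended when array medians were subtracted. Hlf, a relative of Dbp, fell by log2 -0.53 ± 0.13 (SE, limma adjusted p = 0.016) and thus went opposite to Dbp, and the call ended without BWm replicate 3 (adjusted p = 0.081). In RYGB against Sham AL the genes with the smallest p were Hlf (log2 -0.23 ± 0.12 SE) and Tef, another relative of Dbp (log2 -0.21 ± 0.13 SE). The median of the list was log2 0.1 in RYGB against BWm, -0.18 in BWm against Sham AL and -0.15 in RYGB against Sham AL, beside 0.001, -0.015 and -0.003 over all genes. Among animals numbered over 60, 0 of the 14 were called in RYGB against BWm.

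Among 13 measured genes with a known rhythm in mouse liver, 4 were called in RYGB against BWm (1 higher, 3 lower), 0 in BWm against Sham AL (3 at an unadjusted p under 0.05 by limma) and 1, lower, in RYGB against Sham AL. The shares of all genes called were 6.36%, 2.84% and 1.38%, and 1 of 13 is near the last of these. Nampt, the rate-limiting enzyme of NAD salvage and a target of CLOCK and BMAL1, fell in RYGB against BWm (log2 -0.62 ± 0.11 SE, limma adjusted p = 0.002), with values of 7.94 to 8.29 after RYGB and 8.61 to 8.89 in BWm. Gys2, the liver glycogen synthase, fell by log2 -0.61 ± 0.14 (SE, limma adjusted p = 0.012), a call that ended without BWm replicate 3 (adjusted p = 0.058). In BWm against Sham AL, Gys2 (log2 0.47 ± 0.15 SE, limma adjusted p = 0.1) and Nampt (log2 0.35 ± 0.12 SE, limma adjusted p = 0.12) had the smallest p and did not pass. Tfrc, the transferrin receptor that brings iron into cells, rose in RYGB against BWm by log2 1.25 ± 0.25 (SE, limma adjusted p = 0.0046). In RYGB against Sham AL it was at log2 0.87 ± 0.24 (SE, limma adjusted p = 0.08). In BWm against Sham AL it was at log2 -0.38 ± 0.26 (SE, limma adjusted p = 0.55), and neither passed.

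Elovl3, which lengthens fatty acids, fell in RYGB against BWm (log2 -3.12 ± 0.71 SE, limma adjusted p = 0.012) and against Sham AL (log2 -2.79 ± 0.67 SE, limma adjusted p = 0.046), with a range of 5.13 to 9.21 after RYGB, 8.3 to 11.66 in BWm and 9.25 to 9.8 in Sham AL. The RYGB livers were not alike, with replicates 1 and 2 at 9.21 and 8.79, within the BWm range, and replicates 3 to 6 at 5.73, 6.05, 5.61 and 5.13. The Elovl3 call against BWm ended without BWm replicate 3 (adjusted p = 0.061) and with the replicate number as a block. Its call against Sham AL held in 4 of 15 fits without 1 array, namely those that dropped RYGB replicate 1 or 2 or BWm replicate 2 or 3, and the adjusted p reached 0.12 in the rest. That call also ended with all transcript clusters, only the compared groups fitted, limma's robust prior, array weights or the replicate block. The list had a median of log2 -0.37 in RYGB against BWm, 0.1 in BWm against Sham AL and -0.19 in RYGB against Sham AL.

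Genes that answer to hormone, temperature and food signals, cues that can set the liver clock, were counted in the same way. Of 7 glucocorticoid-responsive genes, 3 fell and 0 rose in RYGB against BWm, 1 rose in BWm against Sham AL and 0 were called in RYGB against Sham AL (3 at an unadjusted p under 0.05 by limma), beside 6.36%, 2.84% and 1.38% of all genes called in either direction. Dusp1, a phosphatase of MAP kinases, fell in RYGB against BWm by log2 -1.15 ± 0.21 (SE, limma adjusted p = 0.0019). Tsc22d3 (GILZ), a classical glucocorticoid target, fell by log2 -0.77 ± 0.14 (SE, limma adjusted p = 0.0028), with 5.84 to 6.21 after RYGB against 6.43 to 7.1 in BWm. Zbtb16 fell by log2 -1.29 ± 0.35 (SE, limma adjusted p = 0.031), a call that ended without RYGB replicate 2, 3 or 6 or BWm replicate 2, 3 or 4 (adjusted p of up to 0.11). Fkbp5, which encodes a chaperone of the glucocorticoid receptor, rose in BWm against Sham AL by log2 1.31 ± 0.25 (SE, limma adjusted p = 0.008), with 6.47 to 7.63 in BWm against 5.57 to 6.07 in Sham AL. In RYGB against Sham AL, Dusp1 was at log2 -0.6 ± 0.19 (SE, limma adjusted p = 0.16) and Tsc22d3 at -0.36 ± 0.14 (SE, limma adjusted p = 0.23). Dusp1 was called there without RYGB replicate 1 (adjusted p = 0.043). Without Sham AL replicate 4 the counts were 4 lower in RYGB against BWm, with Fkbp5 added, and 2 higher in BWm against Sham AL, with Zbtb16 added. The list medians were log2 -0.77 in RYGB against BWm, 0.47 in BWm against Sham AL and -0.07 in RYGB against Sham AL.

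Of 7 measured temperature-responsive genes, 2 fell in RYGB against BWm and 1 rose in BWm against Sham AL, and 0 were called in RYGB against Sham AL (0 also at an unadjusted p under 0.05 by limma). The shares over all genes were again 6.36%, 2.84% and 1.38%, and the 2 genes that fell are the near-identical Hspa1b and Hspa1a. Hspa1b, an inducible HSP70 chaperone gene, averaged 6.49 ± 0.7 (SD, n = 6) in RYGB, 8.12 ± 0.86 (SD, n = 4) in BWm and 6.37 ± 0.51 (SD, n = 5) in Sham AL livers. It fell in RYGB against BWm (log2 -1.63 ± 0.37 SE, limma adjusted p = 0.012) and rose in BWm against Sham AL (log2 1.75 ± 0.39 SE, limma adjusted p = 0.019). These calls ended without BWm replicate 2 (adjusted p = 0.058 and 0.084), and the second also without BWm replicate 3 or Sham AL replicate 2. Its copy Hspa1a, whose probe signal may mix with it, fell in RYGB against BWm by log2 -1.05 ± 0.28 (SE, limma adjusted p = 0.033). The Hspa1a call ended without RYGB replicate 3, 5 or 6 or BWm replicate 2 or 3 (adjusted p of up to 0.11). In RYGB against Sham AL, Hspa8 was at log2 0.08 ± 0.1 (SE) and Hsp90aa1 at 0.12 ± 0.17 (SE). The list medians were log2 -0.27 in RYGB against BWm, 0.27 in BWm against Sham AL and 0.04 in RYGB against Sham AL, and they mix both directions.

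Of 13 measured fasting and feeding genes, 6 fell and 1 rose in RYGB against BWm. In BWm against Sham AL 5 rose and 1 fell, and in RYGB against Sham AL 2 rose. Of all genes, 6.36%, 2.84% and 1.38% were called in either direction in these comparisons. Without Sham AL replicate 4, 8 fell and 1 rose in RYGB against BWm, with Pdk4 and Lpin1 added. In BWm against Sham AL 6 then rose and 1 fell, with Pdk4 added. Irs2, the insulin receptor substrate that rises in fasting, averaged 7.16 ± 0.41 (SD, n = 6) after RYGB, 8.41 ± 0.3 (SD, n = 4) in BWm and 6.69 ± 0.38 (SD, n = 5) in Sham AL, and no BWm array overlapped the other groups. It fell in RYGB against BWm (log2 -1.25 ± 0.21 SE, limma adjusted p = 0.0012) and rose in BWm against Sham AL (log2 1.73 ± 0.22 SE, limma adjusted p = 0.00088). Angptl4, an inhibitor of lipoprotein lipase made in fasting, went the same ways, by log2 -1.08 ± 0.16 (SE, limma adjusted p = 0.00034) and 0.93 ± 0.16 (SE, limma adjusted p = 0.0038).

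In RYGB against BWm, G6pc, which encodes the last enzyme of glucose output, fell by log2 -1.7 ± 0.39 (SE, limma adjusted p = 0.012). RYGB replicates 1 to 3, numbered under 50, had G6pc at 10.23, 10.72 and 10.74, and replicates 4 to 6 at 9.4, 8.07 and 8.86. BWm livers ran from 11.1 to 11.65. Txnip, a glucose-responsive inhibitor of thioredoxin, fell in RYGB against BWm by log2 -1.13 ± 0.27 (SE, limma adjusted p = 0.014), a call that ended without BWm replicate 2 (adjusted p = 0.061). The fasting hormone Fgf21 rose by log2 1.36 ± 0.25 (SE, limma adjusted p = 0.0022) in the same comparison and by log2 1.51 ± 0.23 (SE, limma adjusted p = 0.0022) in RYGB against Sham AL. Igfbp1, which is held down by insulin, rose against Sham AL after RYGB (log2 1.59 ± 0.27 SE, limma adjusted p = 0.0043) and in BWm (log2 2.24 ± 0.3 SE, limma adjusted p = 0.00091). Ppargc1a, a fasting coactivator, rose in BWm against Sham AL by log2 1.01 ± 0.21 (SE, limma adjusted p = 0.013), a call that ended without BWm replicate 2 (adjusted p = 0.063), and Fasn, the fatty acid synthase, fell by log2 -1.79 ± 0.31 (SE, limma adjusted p = 0.0037). The list medians were log2 -0.75 in RYGB against BWm, 0.79 in BWm against Sham AL and -0.15 in RYGB against Sham AL, and they mix both directions. The part of these cues in the clock gene differences was not tested.

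**Figure D5:**
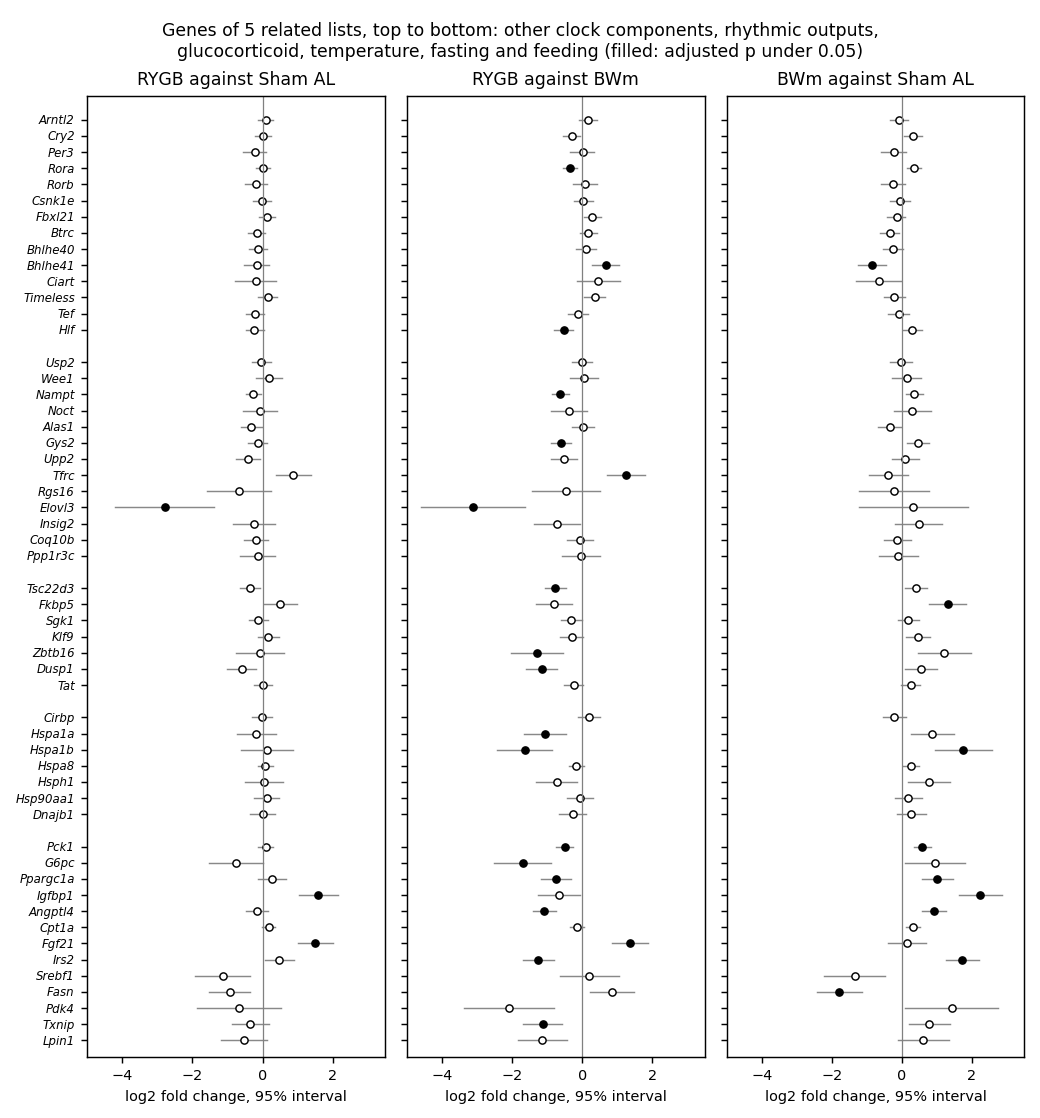
Log2 fold changes (x axis) with 95% limma intervals for the measured genes (rows) of 5 related lists in 3 comparisons, filled where the adjusted p was under 0.05. Filled points in RYGB against BWm lie left of 0 for Irs2, Angptl4, Dusp1 and Nampt and right of 0 for Fgf21, Tfrc and Bhlhe41.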

How the data were processed

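RNA of 15 livers, 1 GeneChip Mouse Gene 2.0 ST array per mouse, was compared. The deposited log2 values were made by the authors by RMA in Expression Console 1.4.1.46, per the labels and the submitters' processing notes. The genome build behind the probe annotation is not given in the sources used here. Of 41345 clusters, 23521 had 1 symbol, and the cluster with the highest mean was kept for each of 22180 genes, with no filter on level. All groups were fitted together with limma 3.58.1 in R 4.3.3 (lmFit, eBayes, 12 residual and 5.85 prior degrees of freedom), with two-sided tests and Benjamini-Hochberg adjustment over all genes. The number of arrays limits the precision. SE are moderated standard errors. Permutations (100000 resamples) used Python 3.11.15 with numpy 2.4.6. The clock genes, the related lists and the tests were chosen with earlier results of these data known. All 9 measured clock genes are named, and of each related list the called genes (at most 5 per comparison, by size of change) or, where none was called, the 2 with the smallest p. For Arntl and Nr1d1, the 5 genes with the highest and the 5 with the lowest r are named. The fits were tested on simulated data. Titles number the arrays as biological replicates.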

Additional observations from a re-analysis of the deposited data

Results flagged for a closer look

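Each of the 27 combinations of a clock gene and a group was screened for an array far from the rest of its group, by the gap to the nearest array as a share of the group's range. Chance alone picks out about 1 in 20 groups. The screen picked out 2, both of them RYGB replicate 3. Its Arntl value was 6.29, with the next RYGB array at 4.9, and its Per1 value was 7.33, with the next at 8.2.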

How the results depend on the processing

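The counts of called clock genes were 5, 5 and 0 in RYGB against BWm, BWm against Sham AL and RYGB against Sham AL. With all transcript clusters tested they were 3, 3 and 0, and with the methods' one-way ANOVA (p under 0.05 and at least 1.5-fold) they were 5, 6 and 0. With the ANOVA p adjusted by Benjamini-Hochberg, at under 0.05 and with no fold limit, they were 2, 1 and 0. With only the compared groups fitted they were 4, 5 and 0, and with limma's robust prior 4, 4 and 0. With the replicate block they were 5, 4 and 0, and with animal number as a block 4, 5 and 0, where the RYGB against BWm calls of Bhlhe41, Zbtb16, Hspa1a, Txnip and Ppargc1a ended too and Dusp1 and G6pc were called in RYGB against Sham AL and, with Zbtb16, in BWm against Sham AL. Same-numbered arrays correlated between -0.17 and 0.19 in their deviations from group means, over 0.1 in 4 of 13 pairs, so the numbers were not taken to pair mice. Leaving out each array in turn gave 3 to 5, 2 to 5 and 0 to 0 calls, and 0 to 2 correlated pairs against 2 in all, with 0 pairs without the 2 arrays farthest from the median (20000 resamples) and 0 among animals numbered over 60. Directions that turned were those of differences not called: without 1 array, RYGB against Sham AL ran from -0.06 to 0.34 for Arntl, -0.21 to 0.07 for Dbp, -0.13 to 0.06 for Nr1d1 and -0.29 to 0.03 for Per1, and BWm against Sham AL from -0.01 to 0.11 for Nr1d2. Per1 was at 0.12 in RYGB against Sham AL among animals numbered over 60, and Hspa8 at -0.02 with the mean of its clusters. The cause of these changes was not tested. Calls over all genes numbered 306 in RYGB against Sham AL, but 169 with all clusters and 174 with the replicate block. They numbered 1411 in RYGB against BWm, but 903 with that block and 857 by the methods' ANOVA. In BWm against Sham AL they numbered 629, but 325 with that block and 1011 with genes under the median level left out. The Benjamini-Hochberg counts of that ANOVA used an adjusted p under 0.05 with no fold limit, so they need not be a subset of the 857. They were 833 in RYGB against BWm, 90 in BWm against Sham AL and 54 in RYGB against Sham AL. Of the RYGB against Sham AL calls 208 of 306 were higher, but 286 of 366 with array medians subtracted. Leaving out 1 array gave at least 930 calls in RYGB against BWm (without BWm replicate 3), 284 in BWm against Sham AL (without BWm replicate 2 or 3) and 144 in RYGB against Sham AL (without Sham AL replicate 2). Signal over background was not measured.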
